A study of Rattus norvegicus with 48 samples.

Results

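The microRNA rno-miR-674-3p was 1 of 143 miRNAs in the deposited table of whole rat liver, from the NanoString nCounter assay, in which a colour-coded probe is counted for every target without amplification. It was chosen by its rise after partial hepatectomy (PHx) in untreated animals, where it stood out at 72 h against 0 h in carbohydrate-fed rats. Its change over time in untreated animals is therefore described below without a test. The opposite arm of the same hairpin, miR-674-5p, was also in the table and is described beside it, which makes 2 of 143 miRNAs.

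The animals were 48 male Sprague-Dawley rats in 16 groups of 3, pair-fed a Lieber-DeCarli liquid diet that held either ethanol (EtOH) or a carbohydrate mixture in its place (CHO). Untreated rats of both diets were collected before surgery (0 h) or 6 h, 24 h or 72 h after it. Rats given saline, or given AM21, a locked nucleic acid oligonucleotide antisense to miR-21, were collected at 0 and 24 h in both diets. The antisense was injected before surgery and again after it, so the 0 h animals of these groups had also been injected, and the ages of single animals are not given in the sources used here. The labels number the 0 h and 24 h animals in sets 1 to 3 and the 6 h and 72 h animals in set 4. A difference between 6 or 72 h and 0 or 24 h cannot be told apart from a difference between sets, while 72 h and 6 h share a set.

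A miRNA gene is transcribed into a hairpin that is trimmed to a short duplex of a 5p and a 3p strand. One strand is loaded into an Argonaute protein and guides it to messenger RNAs that pair with its seed, bases 2 to 8, while the other strand is mostly degraded. Both arms are cut from the same precursor. In a regenerating liver the remaining hepatocytes re-enter the cell cycle within days, and miR-21 is well known to rise there. Chronic ethanol feeding is known to slow this response in rats.

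The hairpin lies on chromosome 3 of the rat genome GRCr8, at chr3:124507170-124507246 on the plus strand, outside the annotated genes, 2812 bases from Spred1, which encodes an inhibitor of Ras signalling. It is shown to place the measured arms. The mature 5p arm is in capitals at positions 11 to 32 of the 77 bases, from RefSeq.
rno-mir-674: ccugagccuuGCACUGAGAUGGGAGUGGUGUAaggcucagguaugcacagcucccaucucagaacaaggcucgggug
In the fold of lowest free energy, 19 of the 22 bases of the 5p arm were paired, all with bases between positions 44 and 65, on the side of the hairpin that yields the 3p arm. The mature 5p sequence is shown with its seed in capitals.
rno-miR-674-5p: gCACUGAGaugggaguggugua
No other of the 693 mature rat miRNAs in the RefSeq table carried the seed CACUGAG.

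The recovered counts totalled 58168 to 267582 per animal with a median of 160078, and miR-122, the dominant hepatocyte miRNA, made up 42.1% to 68.8% of them. miR-21, the target of AM21, was counted 15 to 32 times in the 12 AM21-treated animals, 120 to 9236 times in the 12 saline animals and 717 to 9934 times in the 12 untreated animals at 0 and 24 h. The lowest of the animals without AM21, at 120, was still above all AM21-treated animals. miR-21 was also called lower in saline than in untreated animals, by -1.10 (adjusted p = 0.0407 by limma, with 1.4% of miRNAs called). In EtOH-fed rats at 0 h its mean was 11.62 log2 CPM under saline and 14.72 in untreated animals. The saline animals were therefore not level with the untreated ones in miR-21, and the cause was not tested.

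miR-674-3p was a miRNA of modest level. It was counted 17 to 147 times per animal with a median of 64.5, and it ranked 89 of 143 by mean level. Counting error alone gave a coefficient of variation of 8.25% at its highest count and 24.3% at its lowest. miR-674-5p was counted 17 to 79 times with a median of 48 and ranked 106. Levels below are log2 CPM, the logarithm of counts scaled to a common library size, on which a difference of 1 is a doubling, and the level of a whole tissue cannot tell fewer expressing cells from less RNA per cell.

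In untreated CHO-fed rats the level of miR-674-3p climbed through the time course. The 3 animals at 0 h had 7.80, 8.11 and 8.54 log2 CPM, and those at 6 h had 8.76, 8.09 and 8.69. At 24 h the 3 values were 8.91, 8.95 and 9.02, and at 72 h they were 9.06, 9.13 and 9.39. All animals at 24 h and 72 h lay above all at 0 h, while 6 h overlapped 0 h. The mean lay 0.36 above that of 0 h after 6 h, then 0.81 above it after 24 h and finally 1.04 above it after 72 h, which is 2.06-fold (standard error, SE, 0.20 for all). The value at 6 h ran from 0.19 without CHO-fed animal 1 at 0 h to 0.57 without the lowest animal at 6 h. Within set 4, the level at 72 h was 0.68 above that at 6 h, and the 3 animals of each time did not overlap.

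In untreated EtOH-fed rats the climb started from a higher level. The animals had 8.72, 8.70 and 8.43 log2 CPM at 0 h and 8.69, 8.72 and 8.64 at 6 h. They had 8.85, 9.004 and 9.13 at 24 h and 9.37, 9.36 and 8.93 at 72 h. The mean was 0.07 above baseline after 6 h, 0.38 above it after 24 h, and 0.60 above it after 72 h (SE 0.20), and the level at 72 h was 0.54 above that at 6 h, again without overlap. Both diets reached the same height, with means of 9.19 ± 0.18 (SD, n = 3) in CHO-fed and 9.22 ± 0.25 in EtOH-fed rats at 72 h. The EtOH minus CHO difference in the rise to 72 h was -0.44 with an SE of 0.28, given as a description because these animals entered the choice. Between the diets, untreated EtOH-fed rats exceeded untreated CHO-fed rats by 0.47 before surgery, by 0.17 after 6 h, and by 0.04 and 0.03 at the later times. The CHO-fed animals at 0 h weigh on these values. Without animal 1, the lowest, the difference before surgery was 0.29 and that in the rise -0.26, and without animal 3, the highest, they were 0.67 and -0.64. Without the lowest EtOH-fed animal at 72 h the difference in the rise was -0.29.

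Depth and markers moved along with time in CHO-fed rats. The totals were 58168 to 126821 counts at 0 h against 171919 to 209221 at 72 h, and the summed level of the hepatocyte miRNAs miR-122, miR-192 and miR-194 was 18.48 to 19.10 log2 CPM against 19.14 to 19.39. This contrast called 18.2% of all miRNAs but 0 of these 3. Of the other marker miRNAs, 1 of 4 leukocyte miRNAs was called higher and 0 lower. Called lower were 2 of 2 red blood cell and 1 of 4 mesenchymal miRNAs, with 0 higher, and the 1 endothelial miRNA was not called. Within the groups, over all 48 animals, the level of miR-674-3p had an r of 0.08 with log10 total count and 0.31 with the summed hepatocyte level. That sum is mostly miR-122 (r = 0.32), while miR-192 (r = -0.21) and miR-194 (r = -0.31) went the other way. The part of depth and of these markers in the rise was not tested.

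**Figure D1:**
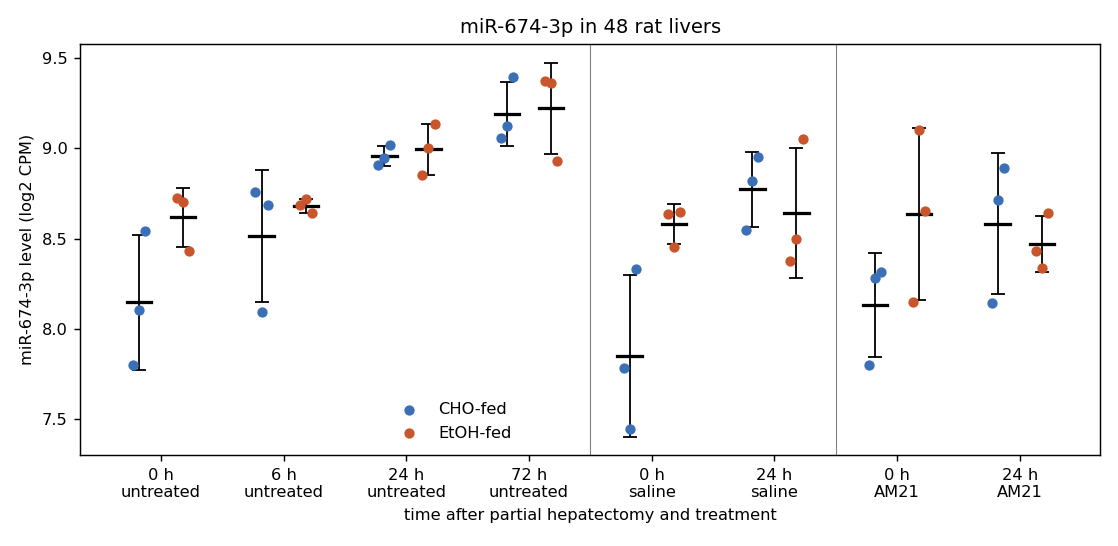
Level of miR-674-3p (vertical axis, log2 CPM) by time after PHx and treatment (horizontal axis), with 1 point per animal, 3 animals per group, the mean as a thick line and the SD as the bar. The lowest group mean is 7.85 (CHO-fed, saline, 0 h) and the highest 9.22 (EtOH-fed, untreated, 72 h), and at 0 h the CHO-fed mean lies below the EtOH-fed mean under all 3 treatments.

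Over the 16 groups, the order of the means began with the 3 CHO-fed groups at 0 h, at 7.85 ± 0.45 (saline), 8.13 ± 0.29 (AM21) and 8.15 ± 0.37 (untreated). It ended with the 4 untreated groups at 24 h and 72 h, between 8.96 and 9.22. The 9 groups between them ran from 8.47 (EtOH-fed, AM21, 24 h) to 8.77 (CHO-fed, saline, 24 h). Every group overlapped its neighbour in this order. By rank among the 143 miRNAs, miR-674-3p was at place 125 in untreated CHO-fed rats at 0 h, at place 90 in untreated EtOH-fed rats at 0 h, and at place 71 in both diets at 72 h.

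The level of miR-674-3p before surgery was higher in EtOH-fed than in CHO-fed rats. Outside the untreated time course by which it was listed, although results of the whole table were known when it was chosen, the 6 CHO-fed rats had 7.78, 7.44 and 8.33 log2 CPM under saline and 7.80, 8.28 and 8.31 under AM21. The 6 EtOH-fed rats had 8.64, 8.45 and 8.65 under saline and 8.15, 9.10 and 8.66 under AM21. The saline groups did not overlap, and 1 of the 3 EtOH-fed AM21 animals lay below the highest 2 CHO-fed ones. The difference was 0.62 on the log2 scale, or 1.53-fold, with an SE of 0.17, a 95% confidence interval of 0.27 to 0.96 and an adjusted p of 0.0418 by limma, in a comparison that called 6.29% of the 143 miRNAs. This call was narrow. It was lost in 11 of 22 alternative settings, with adjusted p-values from 0.0501 to 0.134, for instance at 0.134 when only the 4 groups compared were fitted, while the difference stayed between 0.50 and 0.74.

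With the untreated rats included, 9 animals a diet, the difference at 0 h was 0.57 (SE 0.14, 95% confidence interval 0.28 to 0.85, adjusted p = 0.00705 by limma), and 14.7% of the miRNAs were called. The untreated CHO-fed animals at 0 h are the baseline of the rise by which the miRNA was chosen, so this larger comparison is not free of that choice. By treatment the difference was 0.47 in untreated, 0.73 in saline and 0.50 in AM21 animals. By numbered set it was 0.71, 0.81 and 0.18, and the EtOH-fed animal was the higher one in 8 of 9 pairs with the same treatment and number.

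Depth and cell type markers also moved with diet at 0 h. Values of miR-674-3p over the 3 treatments include the untreated baseline of its rise, so they are not free of its choice. The total counts of the 9 CHO-fed animals were 58168 to 171780 and those of the 9 EtOH-fed animals 92245 to 240355, and in a fit that adjusted for log10 total count the difference was 0.58 over the 3 treatments (adjusted p = 0.0219 by limma) and 0.63 over the saline and AM21 animals, where the call was lost (adjusted p = 0.0582 by limma). Over the 3 treatments, where 14.7% of all miRNAs were called, 1 of 3 on the hepatocyte list (miR-122, miR-192 and miR-194) was called higher in EtOH-fed rats, miR-122 by 0.43, and the summed level was 18.34 to 19.35 log2 CPM in CHO-fed and 19.06 to 19.42 in EtOH-fed rats. When the total was taken without miR-122, the difference of miR-674-3p was 0.54 over the 3 treatments (adjusted p = 0.0137 by limma) and 0.62 over the saline and AM21 animals, again without a call (adjusted p = 0.0501 by limma). On the other lists, in the same comparison with its 14.7% called, 1 of 4 leukocyte miRNAs was called higher, and 0 of 2 red blood cell, 0 of 4 mesenchymal and 0 of 1 endothelial miRNAs were called. The summed leukocyte level was 11.28 to 12.23 in CHO-fed and 11.55 to 12.03 in EtOH-fed rats, no listed marker was at 0 in any animal, and the part of these cells in the result was not tested.

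At 24 h after PHx no difference between diets was called. Over all 3 treatments it was -0.07 (95% confidence interval -0.35 to 0.21, adjusted p = 0.837 by limma, with 1.4% of miRNAs called), and over the saline and AM21 animals it was -0.12 (adjusted p = 0.78, with 0% called by limma and 9 miRNAs at an unadjusted p under 0.05). The diet difference in the change from 0 to 24 h was -0.74 in the saline and AM21 animals, with an SE of 0.24. It was the second smallest p of the table and did not pass the adjustment over all miRNAs (adjusted p = 0.257 by limma, with 0% called and 19 miRNAs at an unadjusted p under 0.05). Over 24 omissions of a single animal it ran from -0.86 to -0.62, at adjusted p-values of 0.0271 to 0.533 by limma. It passed in 1 of these, without the third CHO-fed saline animal at 0 h, and stayed uncalled in 33 other settings.

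The rise to 24 h was also looked at in the treated animals. In saline animals of both diets the level at 24 h was 0.49 above 0 h (SE 0.17, 95% confidence interval 0.14 to 0.84), at an adjusted p of 0.0589 by limma, where 9.79% of miRNAs were called. This value lay close to the threshold. It stayed uncalled in 16 alternative settings, at adjusted p-values of up to 0.0828 by limma, or up to 0.152 with a single animal left out. It passed in 6 settings. These were voom weights, log10 total count as a term, a fit of all 48 animals and the animal number as a block (adjusted p-values of 0.0274 to 0.0496 by limma), and the omission of either of 2 single animals. The 6 values at 0 h (7.44 to 8.65) and the 6 at 24 h (8.38 to 9.05) overlapped. In AM21 animals the difference was 0.14 (95% confidence interval -0.20 to 0.49, adjusted p = 0.562 by limma), with 14% of miRNAs called. The change under AM21 minus that in saline and untreated controls together was -0.40 (95% confidence interval -0.82 to 0.03). It was not called (adjusted p = 0.946 by limma, with 0% of miRNAs called), so no difference in the rise between AM21 and control animals is read from these values. The 24 h values under AM21 were 8.14, 8.71 and 8.89 in CHO-fed and 8.43, 8.34 and 8.64 in EtOH-fed rats, between 8.14 and 8.89 in all, against 8.38 to 9.13 in the 12 controls. miR-674-3p was chosen with results of the whole table known, so none of these values is independent support for its rise.

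Inhibition of miR-21 gave no called difference in miR-674-3p. Against saline, the AM21 animals differed by 0.17 at 0 h (95% confidence interval -0.18 to 0.51, adjusted p = 0.817 by limma, with 2.8% of miRNAs called). At 24 h the difference was -0.18 (95% confidence interval -0.53 to 0.17, adjusted p = 0.918 by limma, with 2.1% called). Against saline and untreated animals together it was 0.08 at 0 h (adjusted p = 0.862, 4.2% called) and -0.32 at 24 h (95% confidence interval -0.62 to -0.02, adjusted p = 0.479, 2.8% called). Saline against untreated animals differed by -0.22 (SE 0.12, adjusted p = 0.714, 1.4% called). The intervals around these values reach to either side of 0 except in the comparison of AM21 with both controls at 24 h.

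The other arm, miR-674-5p, followed another course. In untreated CHO-fed rats it had 8.29, 8.47 and 8.09 log2 CPM at 0 h and 8.53, 8.23 and 8.32 at 72 h, which overlap, and the means differed by 0.08. Its mean was 0.25 above that of 0 h after 6 h and 0.30 above it after 24 h, also with overlap (SE 0.20). In untreated EtOH-fed rats it had 7.84, 7.64 and 7.92 at 0 h and was higher at every later time, by 0.74 after 6 h, by 0.65 after 24 h and by 0.52 after 72 h (SE 0.20), without overlap. These differences share the same 3 animals at 0 h, with only 34, 17 and 49 counts of the 5p arm, so they are not separate observations. From 6 h to 72 h the mean of the 5p arm moved by -0.17 in CHO-fed and -0.21 in EtOH-fed rats, where that of the 3p arm moved up in both diets. So in untreated rats the 3p arm gained more in CHO-fed rats, where it stood 0.81 above 0 h by 24 h and 1.04 by 72 h. The 5p arm gained more in EtOH-fed rats, where it was highest at 6 h. The EtOH minus CHO difference in the rise of the 5p arm to 72 h was 0.44 with an SE of 0.28. It was not called (adjusted p = 0.827 by limma, with 0% of miRNAs called). The gains within each diet are values with no test.

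**Figure D2:**
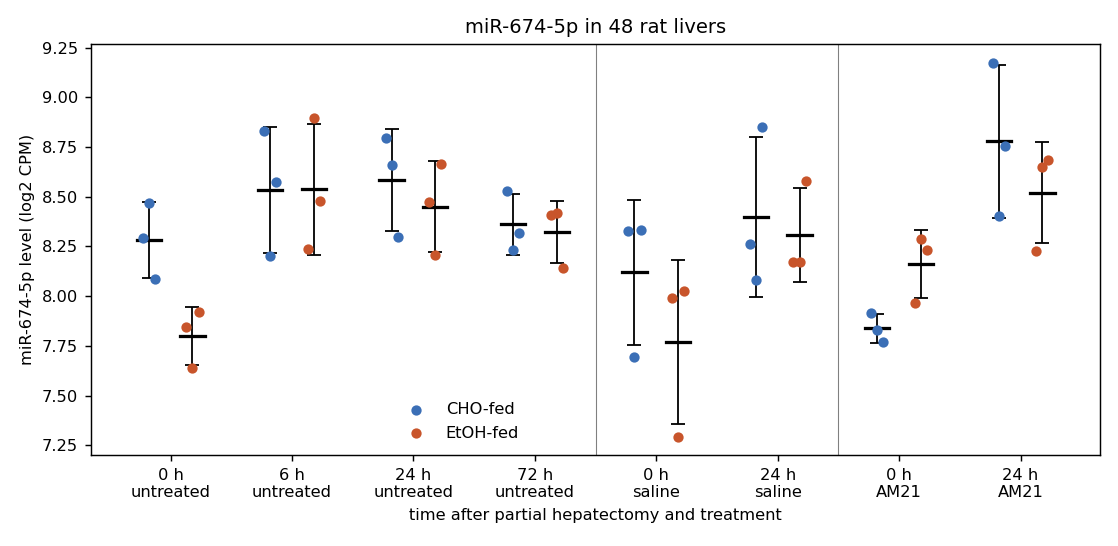
Level of miR-674-5p (vertical axis, log2 CPM) by time after PHx and treatment (horizontal axis), with 1 point per animal, 3 animals per group, the mean as a thick line and the SD as the bar. In untreated rats at 0 h the 3 EtOH-fed animals (7.64 to 7.92) lie below the 3 CHO-fed animals (8.09 to 8.47), while for the 3p arm the EtOH-fed mean was the higher one and the animals overlapped.

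For the 5p arm, diet made no called difference at 0 h. The EtOH minus CHO difference was -0.17 over the 3 treatments (95% confidence interval -0.44 to 0.10, adjusted p = 0.378 by limma) and -0.01 over the saline and AM21 animals. By treatment it changed sign, at -0.48 in untreated, -0.35 in saline and 0.32 in AM21 animals. In AM21 animals miR-674-5p rose from 0 to 24 h by 0.65 (SE 0.16, adjusted p = 0.00708 by limma), where 14% of miRNAs were called. In saline animals the difference was 0.41 (adjusted p = 0.0799 by limma), where 9.79% were called. The change under AM21 minus that in saline and untreated controls together was 0.21 and not called (adjusted p = 0.998 by limma, with 0% called). The rise of the 5p arm is therefore not read as particular to AM21. Under AM21 the means went from 7.84 to 8.78 in CHO-fed and from 8.16 to 8.52 in EtOH-fed rats, so the CHO-fed rise was the larger. Under saline they went from 8.12 to 8.40 in CHO-fed and from 7.77 to 8.31 in EtOH-fed rats. The call in AM21 animals held in all 22 alternative settings. AM21 against saline at 24 h gave 0.30 for the 5p arm (adjusted p = 0.69 by limma).

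**Figure D3:**
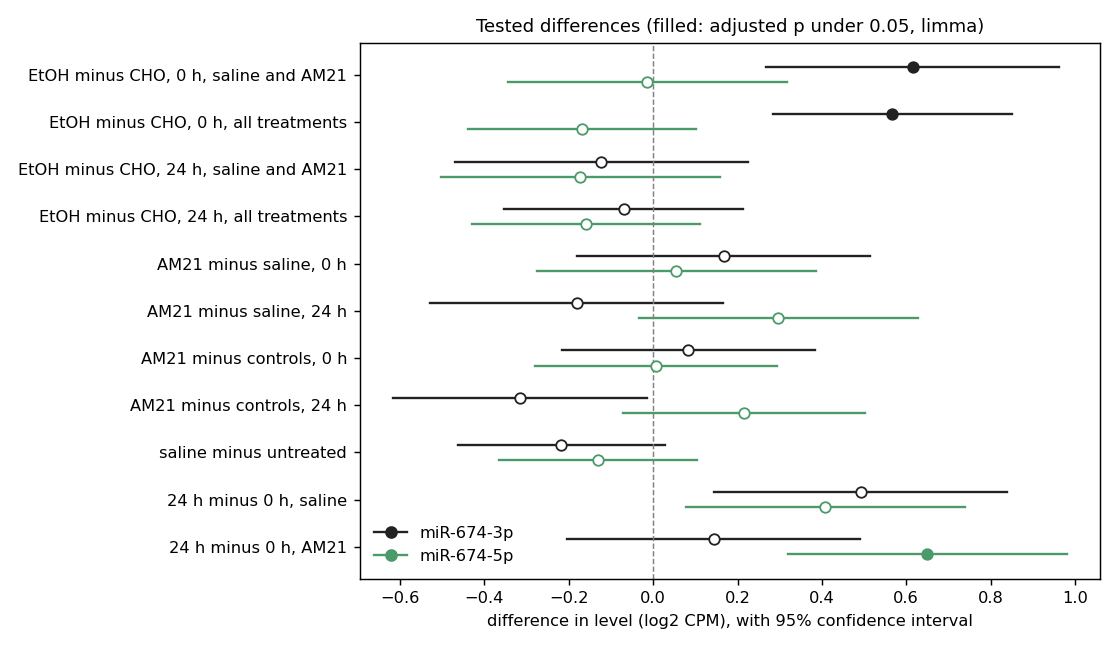
Differences in level (horizontal axis, log2 CPM) of miR-674-3p (black) and miR-674-5p (green) in 11 tested comparisons (vertical axis), with limma's 95% confidence intervals as lines and a filled point where the adjusted p was under 0.05. The 3p arm is called in EtOH minus CHO at 0 h over the saline and AM21 animals (0.62, with 6.29% of miRNAs called). That call was lost in 11 alternative settings and kept in 11. It is also called over all treatments (0.57, with 14.7% called). This comparison holds the same animals plus the untreated ones, so it is not free of the choice of miR-674-3p. The 5p arm is called in the 24 h change under AM21 (0.65, with 14% called).

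The difference between the arms within an animal is free of how the library was scaled, since the same factor divides both counts. The 2 probes need not capture their targets equally well, so only changes of this difference are read. These 7 comparisons of it were chosen after its values were seen, and each was tested by a two-sided exact permutation test within diet or treatment. Over the saline and AM21 animals at 0 h the EtOH minus CHO gap in it was 0.63 (exact permutation p = 0.03, adjusted over the 7 comparisons 0.07), which did not pass. With the untreated animals it was 0.70 ± 0.31 (SD, n = 9) in EtOH-fed and -0.04 ± 0.43 (n = 9) in CHO-fed rats, 0.74 apart (exact permutation p = 0.0025, adjusted 0.0154). That value is not free of the choice of miR-674-3p, since 3 of the 9 CHO-fed rats are the untreated baseline of its rise. At 24 h the diets were 0.09 apart (exact permutation adjusted p = 0.687).

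At 24 h the AM21 minus saline value of the arm difference was -0.48 (exact permutation p = 0.055, adjusted 0.0963), which did not pass. The arm difference was -0.12 ± 0.50 (SD, n = 6) in AM21 animals and 0.41 ± 0.24 (n = 12) in saline and untreated controls together, an AM21 minus control difference of -0.53 (exact permutation p = 0.00439, adjusted 0.0154). Of these 12 controls, 6 are untreated animals of the time course that chose miR-674-3p, so this value is not free of that choice either. The CHO-fed AM21 animal of set 1 stood lowest at -1.03, with 35 counts of the 3p and 72 of the 5p arm, and without it the difference from the controls was -0.32 (exact permutation p = 0.0306). At 0 h AM21 and control animals were 0.08 apart (exact permutation adjusted p = 0.687), and the saline minus untreated difference was -0.09 (exact permutation adjusted p = 0.661).

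**Figure D4:**
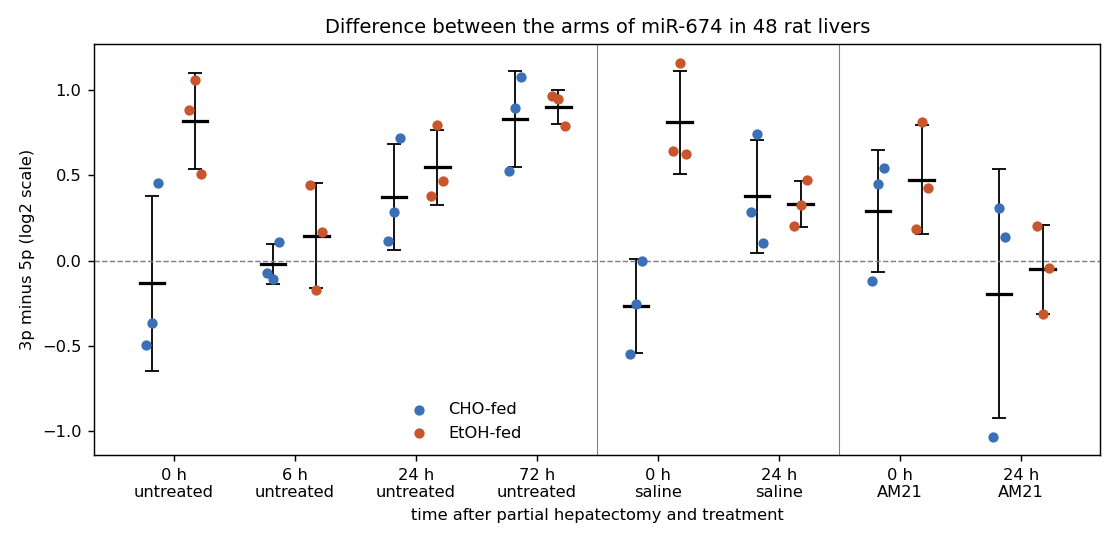
Log2 difference of the 3p and 5p arms of miR-674 in each animal (vertical axis) by time after PHx and treatment (horizontal axis), with 3 animals per group, the mean as a thick line and the SD as the bar, and a dashed line at 0. The 9 EtOH-fed animals at 0 h lie between 0.18 and 1.16 and the 9 CHO-fed ones between -0.55 and 0.54, and at 24 h the AM21 animals reach down to -1.03.

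Across the 16 group means the 2 arms had a Pearson r of 0.33, and over the 48 animals after removing group means an r of 0.28. The miRNAs whose group means ran most like those of miR-674-3p were miR-16, which restrains the cell cycle, with r = 0.82, followed by miR-667, miR-185 and miR-425 with r = 0.80 each. The fifth was miR-675 with r = 0.78, which is processed from the imprinted noncoding RNA H19. Spearman's rho for these 5 was between 0.66 and 0.76. The 16 means share the time course that chose the miRNA, so these values only describe likeness. After removing group means, r over the 48 animals was 0.22 for miR-16, 0.30 for miR-667, 0.36 for miR-185, 0.37 for miR-675 and -0.32 for miR-425.

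miR-16 was picked by group means that include those at 0 h, so its diet difference there is a description and no further likeness. Over the 3 treatments at 0 h it was 0.45 higher in EtOH-fed rats. Its mean was 13.89 in untreated CHO-fed rats at 0 h and 15.25 at 72 h. The lowest likeness was that of miR-27a (r = -0.81), miR-100 and miR-27b (r = -0.80 each). miR-27a and miR-27b are members of one family and act in lipid metabolism. Their group means fell as those of miR-674-3p rose, from 11.63 to 11.13 log2 CPM for miR-27a and from 14.05 to 13.62 for miR-27b between 0 h and 72 h in untreated CHO-fed rats.

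**Figure D5:**
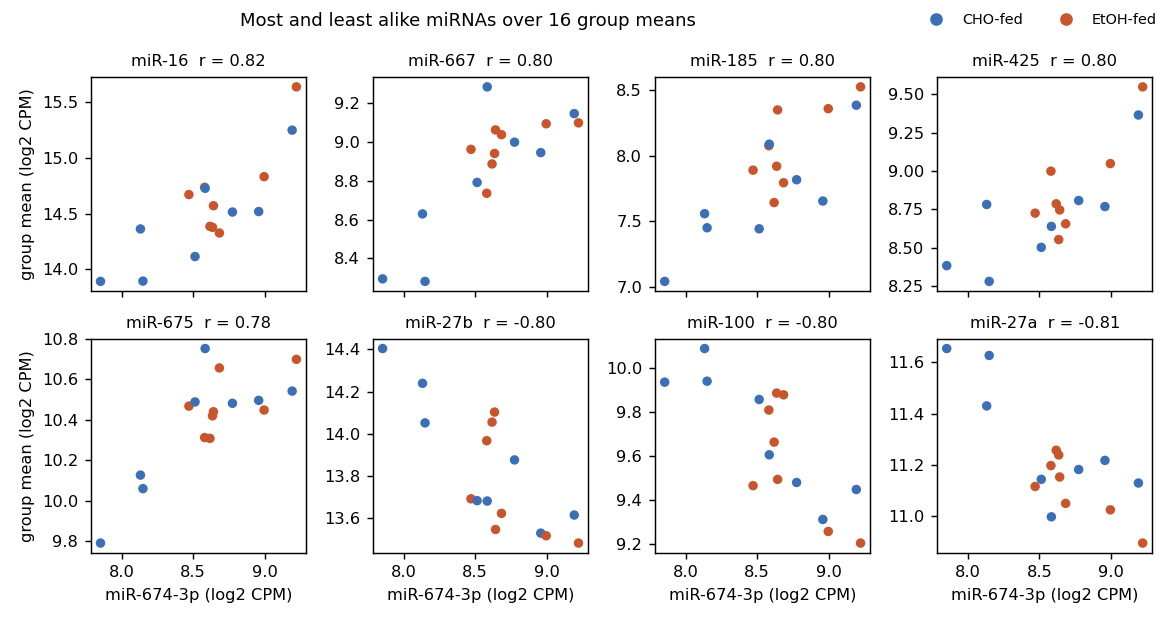
Group mean of 8 miRNAs (vertical axes, log2 CPM) against that of miR-674-3p (horizontal axis, log2 CPM), with 1 point for each of the 16 groups, coloured by diet. The 5 most alike rise with miR-674-3p (r from 0.78 to 0.82) and the 3 least alike fall (r from -0.81 to -0.80), and the 3 CHO-fed groups at 0 h form the left end of each panel.

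miR-674-3p was set beside miRNAs known to promote or restrain growth. In CHO-fed rats at 72 h against 0 h, 2 of the 9 growth-promoting miRNAs in the table were called higher and 0 lower, in a comparison that called 18.2% of all miRNAs. The list's median difference was 0.56, against 0.00 over all 143 miRNAs. miR-21 was highest at 0.98 and miR-25 lowest at 0.11, and miR-674-3p at 1.04 lay above all 9. Of the 14 growth-restraining miRNAs, 3 were called higher and 0 lower, with a median of 0.13 and with miR-16 highest at 1.36. In EtOH-fed rats, where 18.2% of all miRNAs were called, 3 of the 9 and 3 of the 14 were called higher, with medians of 0.60 and 0.06, and miR-674-3p at 0.60 lay at the median of the growth-promoting list. Nothing particular to miR-674-3p is read from this contrast, which chose it. At 0 h between diets over the 3 treatments, where 14.7% of all miRNAs were called, 0 of the 9 and 2 of the 14 were called higher in EtOH-fed rats, and none lower. Levels of red blood cell miRNAs moved the other way at 72 h in CHO-fed rats, where miR-451 and miR-144 were both called lower, by -1.72 and -1.47, and their part in the rise was not tested.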

How the data were processed

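Total RNA of 48 livers was counted by NanoString nCounter. The authors scaled the counts by TMM and deposited log2 CPM made with voom for 143 miRNAs. Their filter on miRNAs is not given in the sources used here, and control probes were not analysed here. With voom's prior count of 0.5 the values were turned back into counts, all within 0.001 of a whole number. Groups came from the sample titles. A mean per group was estimated from these log2 CPM by limma 3.58.1 in R 4.3.3 (lmFit, eBayes), on the 24 untreated animals or on the 36 at 0 and 24 h. P-values were adjusted by Benjamini-Hochberg over all 143 miRNAs, called under 0.05, and measure the spread between animals. The steps were tested on simulated data. The miRNA, the lists and the named miRNAs (the 5 most and 3 least alike) were chosen with earlier results of these data known. The 5p arm, comparisons over saline and AM21 animals alone, arm differences and the diet difference in the 24 h change were added after the data were seen. RNAfold 2.7.2 folded the hairpin, and matplotlib 3.10.9 drew the figures. Animals of the same number deviated together in all 3 pairs (r = 0.516, 0.793 and 0.654) between diets in untreated rats at 0 h, and in 4 of 20 group pairs checked. Alternatives were RLE size factors, the 100 highest miRNAs, the total without miR-122, at least 50 counts in 3 animals (138 miRNAs), voom weights, log10 total count, other sets of animals, at least 100000 total counts, the number as a block, and each animal left out.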

Additional observations from a re-analysis of the deposited data

How the results depend on the processing

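Of 713 recomputed values, 680 counted as unchanged, 11 as weaker, 8 as stronger, 4 as moved and 10 as reversed. A tested value was unchanged if it kept its direction and side of the threshold. An untested time difference was unchanged if it kept its direction and shifted by less than the replicate SD of 0.28. Likeness values counted by a small shift of r, and arm differences by an unadjusted permutation p under 0.05. For EtOH minus CHO at 0 h in saline and AM21 animals the call was lost with the total without miR-122 (0.62), with log10 total count as a covariate (0.63) and with only the groups compared (0.62), and in 8 of 12 omissions of an animal (0.50 to 0.74). The 24 h change in saline animals passed with voom weights (0.51, adjusted p = 0.0419 by limma), log10 total count (0.50, 0.0496), all 48 animals (0.49, 0.0337) and the replicate block (0.49, 0.0274), and without EtOH-fed saline animal 1 at 24 h (0.56, 0.0463) or CHO-fed saline animal 3 at 0 h (0.61, 0.0128), in a range of 0.39 to 0.61. It did not pass in the other 16 settings. In the replicate block no other call changed, and for untreated rats at 0 h, the pairs that deviate together, it gave 0.47 (adjusted p = 0.211 by limma). With the total without miR-122 the untreated diet difference was -0.014 at 24 h and -0.0135 at 72 h. With single animals left out, its range was -0.039 to 0.29 after 6 h, -0.031 to 0.11 after 24 h, and -0.046 to 0.18 after 72 h. That of AM21 minus controls at 0 h was -0.033 to 0.20, that of EtOH 6 h minus 0 h was -0.028 to 0.12, and that of the diet difference in the 24 h change was -0.72 to -0.56 over all treatments and -0.86 to -0.62 in saline and AM21 animals. The causes were not tested. Depth limits the values, since at 17 counts counting error alone is 24.3%, and 3 animals a group leave SEs near 0.20.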
